A study of Mus musculus with 16 samples.

Results

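The genes described here are 10 of the 21938 protein-coding genes of GENCODE release M21 for the mouse assembly GRCm38, listed by name as the parts of the pathway through which T cells receive interleukin-2 (IL-2), IL-7 and IL-15. Il2ra, Il2rb, Il7r, Il15ra and Il21r encode receptor chains, Jak1 a receptor-bound kinase, Stat5a and Stat5b transcription factors, Cish an inhibitor of the pathway and Bcl2 a survival protein. A library was said to hold a gene when it had at least 1 peak touching the gene body or a flank of 5000 bp at either end. All 10 genes were held by at least 1 of the 16 libraries.

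Open chromatin had been measured by ATAC-seq, which reads out where a transposase can cut DNA that is not packed away, in mouse CD8+ T cells differentiated in culture into effector (TE) or memory (TM) cells. Per the methods of the study, OT-I T cells, which carry a transgenic receptor for an ovalbumin peptide, were activated with that peptide and then kept in IL-2 to obtain TE or in IL-15 to obtain TM, so that the genes described here serve the cytokines that set the cell types apart. The 4 groups of 4 libraries were WT TE (genotype TPdh+/+), TPdh-/- TE, WT TM (TPdh+/+) and TPdh-/- TM, from male and female mice of 8 to 12 weeks. TPdh-/- mice carry the floxed allele B6.129P2-Pdha1tm1ptl/J and a CD4-Cre transgene, which deletes Pdha1, a subunit of the pyruvate dehydrogenase complex, in T cells. CD4-Cre acts in CD8+ cells because their thymic precursors pass through a stage that expresses Cd4, and whether WT mice carried Cre was not given in the sources used here.

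IL-2 and IL-15 share the receptor chains encoded by Il2rb and Il2rg, while Il2ra and Il15ra add a private chain that binds one cytokine tightly. IL-7 uses Il7r and IL-21 uses Il21r, each with the chain encoded by Il2rg. Ligand binding brings together the kinases JAK1 and JAK3, which phosphorylate STAT5A and STAT5B, and the STAT5 dimer enters the nucleus and binds the palindrome TTCNNNGAA. Cish is a classical STAT5 target whose product dampens the signal, and BCL2 is the survival factor through which IL-7 and IL-15 keep memory T cells alive.

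The lists held 645567 peaks in all, from 2290 to 86637 per library, and 237 peaks fell in the 641547 bp covered by the 10 genes and their flanks. Background coverage, the mean fragment depth per base as recovered from the peak statistics, was 0.636 to 1.55 in WT TE, 0.173 to 0.445 in TPdh-/- TE, 0.354 to 0.572 in WT TM and 0.186 to 0.261 in TPdh-/- TM. The share of all protein-coding genes held by a library was 11.3% to 42.7% in WT TE, 40.7% to 66.4% in TPdh-/- TE, 21.4% to 60.4% in WT TM and 61.6% to 67.3% in TPdh-/- TM. Both quantities differed between the groups compared. Their part in each result was not tested beyond the counts in lists of equal length, which are given for the 10 genes. Pdha1 itself was held by 1 library of each WT group, 2 of TPdh-/- TE and 3 of TPdh-/- TM, which does not check its deletion, since a peak shows open DNA around a gene and not whether an exon is missing. In bulk libraries, opening in fewer cells and weaker opening in each cell cannot be told apart. Promoter peaks were found in 24.0% of the gene and library pairs for 6 T cell markers and in 34.4% for Cd8a and Cd8b1, against 9.38% for CD4 T cell markers, 12.5% for myeloid markers, 3.12% for red cell markers and 6.25% for the liver marker Alb. The mean share of all protein-coding genes with a promoter peak was 18.82% in WT TE and 19.47% in TPdh-/- TE. It was 15.78% in WT TM and 29.35% in TPdh-/- TM. In the same order of groups, T cell markers had 16.7%, 16.7%, 20.8% and 41.7%, below all genes in both TE groups. CD8 markers had 37.5%, 12.5%, 25.0% and 62.5%. With 12.5% for CD4, 16.7% for myeloid, 12.5% for red cell markers and 25% for Alb, promoters did not set T cells apart in TPdh-/- TE. Over whole genes the markers did not do so either, since myeloid markers were held in 75% of the pairs in TPdh-/- TM. Lyz2, Hbb-bs and Cd4 had no promoter peak in any library, and the part of other cells in the results was not tested.

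The number of the 10 genes held was 3, 7, 0 and 2 in WT TE replicates 1 to 4, 5, 6, 8 and 8 in TPdh-/- TE, 8, 7, 4 and 3 in WT TM, and 8, 9, 8 and 8 in TPdh-/- TM. Averaged over 4 libraries, with the SD, this was 3.0 ± 2.94 genes for WT TE, 6.75 ± 1.5 for TPdh-/- TE, 5.5 ± 2.38 for WT TM and 8.25 ± 0.5 for TPdh-/- TM. TPdh-/- TM libraries were the most alike, and WT TE libraries spread from no gene to 7. The difference between TPdh-/- and WT was 3.75 genes in TE and 2.75 in TM, beside a difference of 25.4 and 22.8 percentage points in the share of all protein-coding genes. In lists cut to the 2290 peaks with the lowest q-values, the length of the shortest list, the means were 0.25 gene in TPdh-/- TE and 1.0 in WT TE, and 0.5 in TPdh-/- TM and 1.0 in WT TM, so the direction turned in both cell types. Over all protein-coding genes the difference between genotypes in these lists was -6.05 percentage points in TE, where it also turned, and 0.915 in TM, where it did not. Lists of 2290 peaks held Stat5b in 5 libraries, Bcl2 in 4 (1 WT TE, 2 WT TM and 1 TPdh-/- TM), Il2ra and Il7r in 1 each, and Il2rb, Il15ra, Il21r, Jak1, Stat5a and Cish in 0. In lists of 13304 peaks, the shortest TM list, TPdh-/- TM exceeded WT TM by 0.5 gene.

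**Figure D1:**
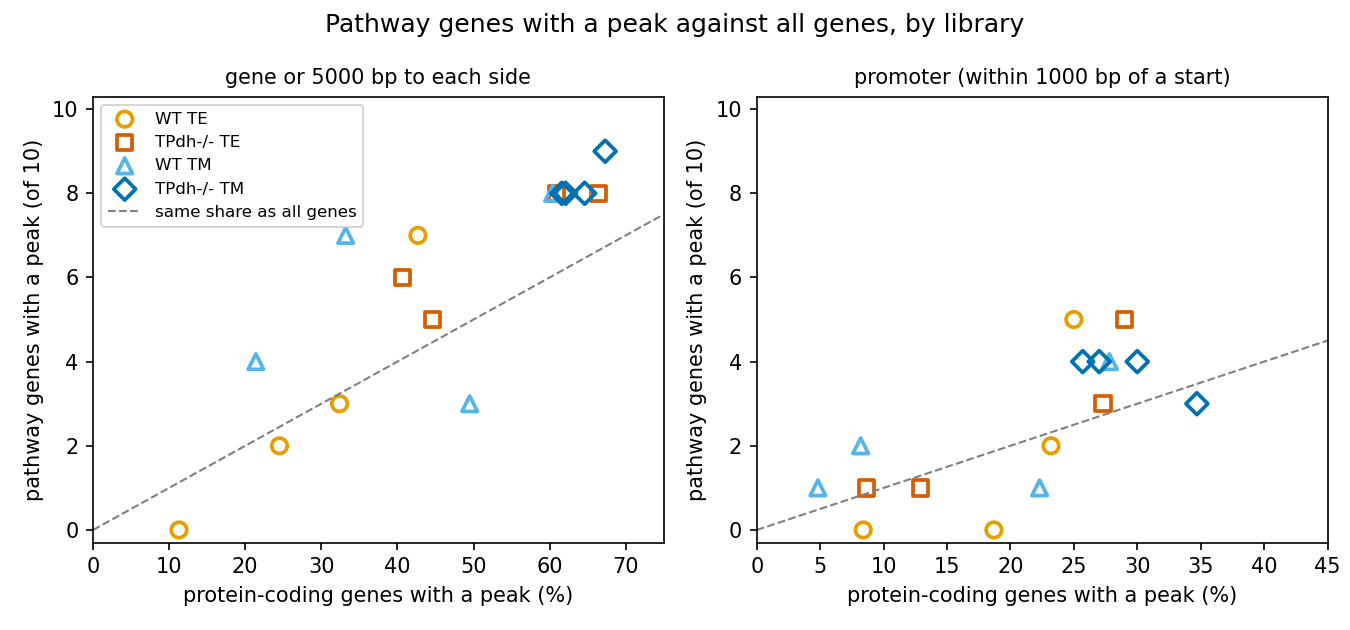
Number of the 10 pathway genes with a peak (vertical axis) against the percentage of all protein-coding genes with a peak (horizontal axis), 1 symbol per library, over the gene and 5000 bp to each side (left) and over promoters (right). The dashed line is the same share as for all genes, and the libraries run from 0 pathway genes at 11.3% to 9 at 67.3%, with WT TM replicate 4 low, at 3 genes and 49.5%.

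Peaks in these genes rested on few fragments. A pathway gene was held in 94 of the 160 pairs of gene and library. Its strongest peak had a fold enrichment of 2.99 to 8.51, with a median of 5.07 beside 4.89 for all protein-coding genes. These values are not plain ratios to local background, since a constant is added to summit pileup and background before division. Background coverage differed between groups, so their fold enrichments are not on a common plain scale. The pileup at the summit of the strongest peak was 3 to 19 fragments, with a median of 6.5. In WT TE it was 9 to 19, with a median of 10.5, against 3 to 11 in TPdh-/- TE, 4 to 11 in WT TM and 3 to 10 in TPdh-/- TM. A gene without a peak is one in which no opening was detectable at the depth of that library, and that limit differed between groups. The Il2ra peaks of TPdh-/- TE, for instance, had 4 to 10 fragments, and no pathway gene had a strongest peak of under 9 in WT TE. The median gene was held by 8.5 libraries, beside 7.0 for all protein-coding genes and 11 for the 7737 of them with windows at least as wide as the median pathway gene (39585 bp). At promoters, taken as 1000 bp to each side of any annotated start, the median was 4.0 libraries beside 2.0.

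**Figure D2:**
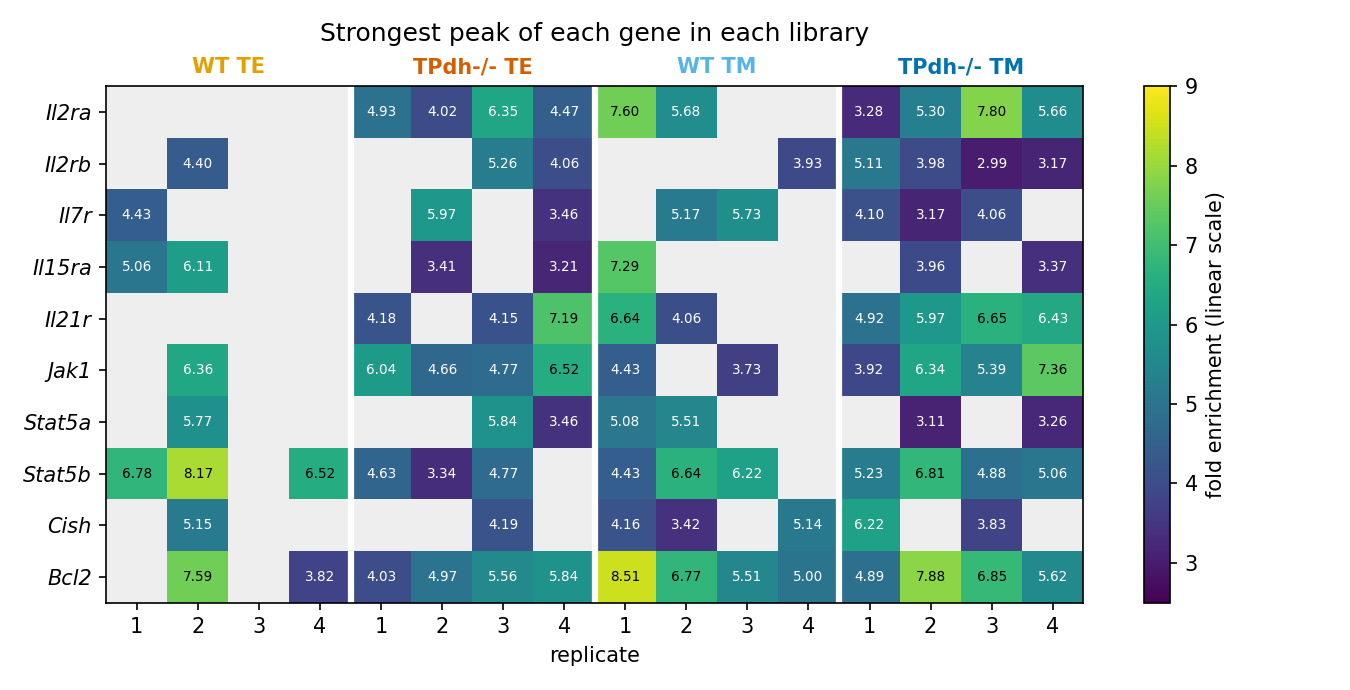
Fold enrichment of the strongest peak of each pathway gene (rows) in each of the 16 libraries (columns, by group and replicate), with grey where no peak was called. Il2ra and Il21r were grey in all 4 WT TE libraries, Bcl2 was held by 14 libraries, and the highest value was 8.51 for Bcl2 in WT TM replicate 1.

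Across the genotype comparison in TE, 3 of the 10 genes (Il2ra, Il21r and Jak1) were held by at least 3 more TPdh-/- than WT libraries and none by at least 3 fewer, beside 16% of all protein-coding genes and 30.1% of those with windows of at least 39585 bp. In TM, 1 gene (Il2rb) was, beside 8.88%. Neither TM against TE in WT, with 8.43% of all genes, nor TM against TE in TPdh-/-, with 4.88%, had a pathway gene that differed by 3 libraries. These 4 comparisons share libraries, since each group enters 2 of them. Presence was tested with a two-sided Fisher's exact test for each of the 21938 genes. After Benjamini-Hochberg adjustment 0 pathway genes passed in any comparison, beside 0.0% of all genes in each. At an unadjusted p under 0.05, which needs 4 of 4 libraries against 0 of 4, 1 pathway gene (Il2ra) was called in TE beside 3.18% of all genes and 7.04% of those with windows of at least 39585 bp, and 0 in TM (1.15%), in TM against TE in WT (1.21%) and in TM against TE in TPdh-/- (0.479%).

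Strength was compared as the log2 fold enrichment of the strongest peak, with 0 for a gene without one, by two-sided exact permutation tests over 70 arrangements of 8 libraries. The smallest p this allows is 0.0286, as for Fisher's exact test, and a call after adjustment would need most of all genes to reach it. No gene passed after adjustment in any of the 4 comparisons (0.0%). Unadjusted, Il2ra was called in TE beside 5.56% of all genes and 12.4% of those with windows of at least 39585 bp, and Stat5b in TM against TE in TPdh-/- beside 2.34% and 3.3%, while 0 pathway genes were called between genotypes in TM (2.72%) and between TM and TE in WT (3.03%). Whether the genotype mattered differently in TM than in TE was tested by exact permutation over 4900 arrangements, and p ran from 0.233 for Stat5b to 0.894 for Cish. Unadjusted, 0 pathway genes and 5.35% of all genes were called by this test, and after adjustment none was, with 0.809 the lowest adjusted p.

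Il2ra (ENSMUSG00000026770.5, chr2:11642807-11693193, plus strand) encodes CD25, the chain that gives the IL-2 receptor its high affinity and marks activated T cells. Its strongest peak had a fold enrichment of 4.93, 4.02, 6.35 and 4.47 in TPdh-/- TE replicates 1 to 4, and no WT TE library held it. The values were 7.6 and 5.68 in WT TM replicates 1 and 2, with no peak in replicates 3 and 4. In TPdh-/- TM they were 3.28, 5.3, 7.8 and 5.66. All TPdh-/- libraries of both cell types held Il2ra, against 2 of the 8 WT libraries. The share of all genes with such a pooled count was not computed. TPdh-/- libraries held 40.7% to 67.3% of all protein-coding genes, and WT libraries 11.3% to 60.4%. In TE the groups did not overlap, with a mean log2 fold enrichment of 2.28 ± 0.282 (SD, n = 4) in TPdh-/- and 0 in WT. The exact permutation p was 0.0286, and 0.514 after adjustment, and the Fisher's exact p was 0.0286, and 0.89 after adjustment over 21938 genes. This difference was 4 libraries in the full lists, 1 library among peaks with a fold enrichment or −log10 q of at least 5, and 0 in lists of 2290 peaks. With a flank of 10000 bp 1 WT TE library held the gene, and with no flank 3 TPdh-/- TE libraries did.

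The 26 Il2ra peaks lay at 18 sites, of which 14 were seen in a single library, and 19 of the 26 summits were intronic. No site was shared by more than 3 libraries. One such site, chr2:11662963-11663545, lay in an intron and was held by WT TM replicate 1 (7.6-fold) and TPdh-/- TM replicates 2 and 4 (4.67- and 3.37-fold) and by no TE library. Peaks within 1000 bp of a start were found in 3 TPdh-/- TM libraries, 1 library each of TPdh-/- TE and WT TM, and 0 of WT TE. The 4 libraries of TPdh-/- TE thus held Il2ra at different places, and only replicate 1 at a promoter.

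Il2rb (ENSMUSG00000068227.9, chr15:78479256-78495271, minus strand) encodes CD122, the signalling chain that receives both IL-2 and IL-15. The fold enrichment of its strongest peak was 4.4 in WT TE replicate 2, and 5.26 and 4.06 in TPdh-/- TE replicates 3 and 4. It was 3.93 in WT TM replicate 4, and 5.11, 3.98, 2.99 and 3.17 in TPdh-/- TM replicates 1 to 4. TPdh-/- TM was the only group in which every library held the gene, and 2 of its 4 values lay near the lowest that any pathway gene had. Against WT TM the difference was 1.4 on the log2 scale (exact permutation p = 0.0857, adjusted p = 0.899), and the groups overlapped. The margin of 3 libraries, taken as 75% of a group, was lost when WT TM replicate 1, 2 or 3 was left out, without flanks, among peaks with a fold enrichment or −log10 q of at least 5, and in lists of equal length. A promoter site at chr15:78494655-78495419 was shared by 1 library each of WT TE, TPdh-/- TE and TPdh-/- TM, and 6 of the 10 peaks had their summits downstream of the gene.

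Il7r (ENSMUSG00000003882.5, chr15:9505788-9530176, minus strand) encodes CD127, the IL-7 receptor chain kept by memory T cells and lost by effector cells. Its strongest peaks had a fold enrichment of 4.43 in WT TE replicate 1, 5.97 and 3.46 in TPdh-/- TE replicates 2 and 4, 5.17 and 5.73 in WT TM replicates 2 and 3, and 4.1, 3.17 and 4.06 in TPdh-/- TM replicates 1 to 3. It was held by 8 libraries with exactly 1 peak each, and no group was complete. The peaks spread over 7 sites, 1 of which was seen in 2 libraries, in the 3' untranslated region. A single library, WT TE replicate 1, had a peak at its promoter. None of the 4 comparisons gave an exact permutation p under 0.429.

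Il15ra (ENSMUSG00000023206.16, chr2:11705290-11734317, plus strand) encodes the private chain that presents IL-15. Its strongest peaks had a fold enrichment of 5.06 and 6.11 in WT TE replicates 1 and 2, 3.41 and 3.21 in TPdh-/- TE replicates 2 and 4, 7.29 in WT TM replicate 1, and 3.96 and 3.37 in TPdh-/- TM replicates 2 and 4. The number of libraries was 2, 2, 1 and 2, and it differed by no more than 1 in any comparison. What differed was the place. A site over an annotated start, chr2:11705407-11706180, was held by 2 WT TE and 2 TPdh-/- TE libraries and by no TM library, whereas the TM peaks lay elsewhere in the gene. That is 4 of 8 TE libraries against 0 of 8 TM libraries, a difference picked out after the values were seen and not tested. The share of all promoters or sites with such a pattern was not counted. In WT, 2.54% of all genes had promoter peaks in at least 3 fewer TM than TE libraries, and 0.36% in at least 3 more. In TPdh-/- these shares were 0.428% and 4.02%. The sequence is shown because, of the 6 sites of the pathway held by at least 4 libraries, this was the one held by TE libraries alone. It is the RefSeq promoter on GRCm38.p6, chr2:11705462-11705761, plus strand, from 250 bases before to 50 bases from the start on, with a match to the AP-1 motif TGANTCA in capitals. That motif, which reads the same on both strands, was found in 7.81% of 32851 RefSeq promoters of equal length.
Il15ra promoter: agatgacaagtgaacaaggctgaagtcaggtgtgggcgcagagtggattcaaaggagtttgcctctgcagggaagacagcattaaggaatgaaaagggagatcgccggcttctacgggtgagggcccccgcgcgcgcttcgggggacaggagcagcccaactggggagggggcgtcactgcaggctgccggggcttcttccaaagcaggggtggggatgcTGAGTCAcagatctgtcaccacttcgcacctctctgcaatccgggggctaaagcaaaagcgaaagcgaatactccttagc

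Il21r (ENSMUSG00000030745.9, chr7:125603429-125633570, plus strand) encodes the IL-21 receptor chain, which signals with the same shared chain. No WT TE library held it. Its strongest peaks had a fold enrichment of 4.18, 4.15 and 7.19 in TPdh-/- TE replicates 1, 3 and 4, 6.64 and 4.06 in WT TM replicates 1 and 2, and 4.92, 5.97, 6.65 and 6.43 in TPdh-/- TM. The TPdh-/- TM values were close to each other, and that group held 16 of the 27 peaks, 8 of them in replicate 4. Differences between genotypes were 1.74 on the log2 scale in TE (exact permutation p = 0.143, adjusted p = 0.673) and 1.38 in TM (exact permutation p = 0.114, adjusted p = 0.899). Of the 27 peaks, 19 were intronic and 3 had summits within 1000 bp of a start. No site was shared by more than 2 libraries, and in lists of 2290 peaks no library held Il21r.

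**Figure D3:**
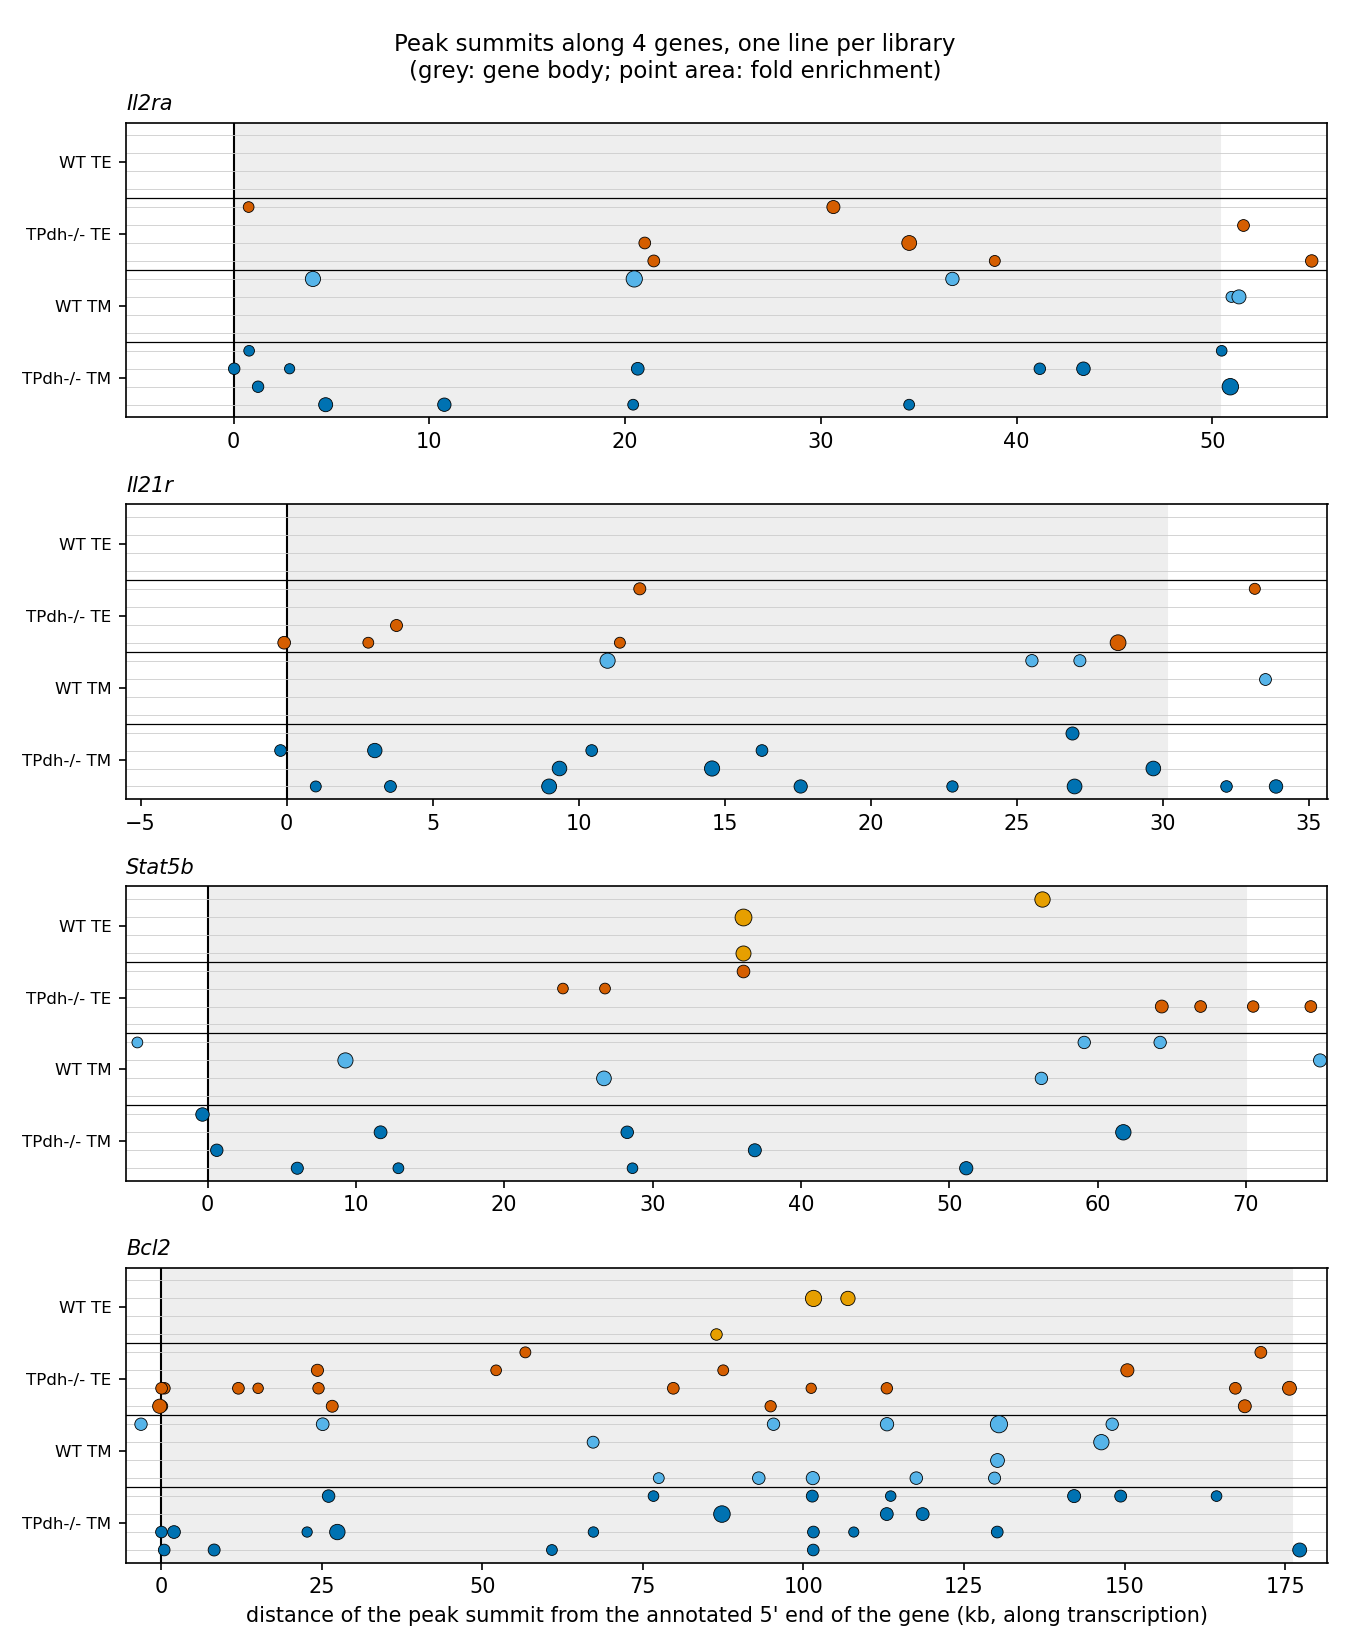
Peak summits along Il2ra, Il21r, Stat5b and Bcl2, 1 line per library (replicates 1 to 4 from the top within each group), by distance in kb from the annotated 5' end along transcription, with point area in proportion to fold enrichment and the gene body in grey. WT TE lines are empty for Il2ra and Il21r, TPdh-/- TM replicates each have a summit by a start of Stat5b, and most Bcl2 summits lie inside the gene.

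Jak1 (ENSMUSG00000028530.14, chr4:101152367-101265282, minus strand) encodes the kinase bound to the cytokine-specific chains of these receptors. The strongest peak had a fold enrichment of 6.36 in WT TE replicate 2, 6.04, 4.66, 4.77 and 6.52 in TPdh-/- TE, 4.43 and 3.73 in WT TM replicates 1 and 3, and 3.92, 6.34, 5.39 and 7.36 in TPdh-/- TM. As for Il2ra, all 8 TPdh-/- libraries held the gene, against 3 of 8 WT libraries. The share of all genes with such a pooled count was not computed here either. The Jak1 window of 122916 bp was wider than the pathway median of 39585 bp, and TPdh-/- groups held more of all genes on average. The genotype difference was 1.78 on the log2 scale in TE (exact permutation p = 0.114, adjusted p = 0.673) and 1.48 in TM (exact permutation p = 0.0571, adjusted p = 0.899). TPdh-/- TM libraries held 26 of the 43 Jak1 peaks and WT TE libraries 1. Promoter peaks did not follow that order, with 1 library in WT TE, 1 in TPdh-/- TE, 2 in WT TM and 1 in TPdh-/- TM. At the 5' end, the peaks of WT TE replicate 2 (6.36-fold) and TPdh-/- TE replicate 4 (6.14-fold) had summits 8 bp apart. In lists of 2290 peaks no library held Jak1.

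Stat5a and Stat5b lie side by side on chromosome 11, transcribed away from each other, and their windows overlap, so that 1 peak was counted for both. Stat5a (ENSMUSG00000004043.14, chr11:100859351-100885169, plus strand) encodes a cytokine-activated transcription factor, and its strongest peaks had a fold enrichment of 5.77 in WT TE replicate 2, 5.84 and 3.46 in TPdh-/- TE replicates 3 and 4, 5.08 and 5.51 in WT TM replicates 1 and 2, and 3.11 and 3.26 in TPdh-/- TM replicates 2 and 4. It was held by 7 libraries, and both TPdh-/- TM values lay below both WT TM values. The peaks behind the 3.11 of TPdh-/- TM replicate 2 and the 5.84 of TPdh-/- TE replicate 3 lay downstream of Stat5a, inside the annotated Stat3, and cannot be assigned to either gene. With the libraries without a peak at 0, the difference in TM was -0.37 on the log2 scale (exact permutation p = 0.657, adjusted p = 1.0). A site over an annotated start, chr11:100860313-100860645, was held by 1 WT TE, 1 TPdh-/- TE and 2 WT TM libraries and by no TPdh-/- TM library. An intronic site, chr11:100882505-100882775, was held by WT TE replicate 2, TPdh-/- TE replicate 3 and WT TM replicate 2, which were among the libraries at that start.

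Stat5b (ENSMUSG00000020919.11, chr11:100780731-100850724, minus strand) encodes the STAT5 form that predominates in T cells, and it gave the highest pileup of the pathway. Its strongest peaks had a fold enrichment of 6.78, 8.17 and 6.52 in WT TE replicates 1, 2 and 4, over 16, 13 and 19 fragments. In TPdh-/- TE replicates 1 to 3 the fold enrichment was 4.63, 3.34 and 4.77, over 6, 3 and 5 fragments. It was 4.43, 6.64 and 6.22 in WT TM replicates 1 to 3, and 5.23, 6.81, 4.88 and 5.06 in TPdh-/- TM. Among libraries with a peak, each WT TE value lay above each TPdh-/- TE value, although 1 library of each group had no peak. The difference of -0.57 on the log2 scale gave an exact permutation p of 0.486 (adjusted p = 0.997). Over all protein-coding genes the median strongest peak was also higher in WT TE, at 5.26 against 4.77 in TPdh-/- TE. The share of genes with such an order was not counted. In lists of 2290 peaks, Stat5b was held by 3 WT TE and 0 TPdh-/- TE libraries and by 2 WT TM and 0 TPdh-/- TM libraries, which made it the only pathway gene that differed by 3 libraries there, with fewer TPdh-/- libraries. In these lists WT TE also held more of all protein-coding genes, at 10.2% to 12.2% per library against 4.67% to 6.54% in TPdh-/- TE.

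The lowest Stat5b value in TPdh-/- TM, 4.88, lay just above the highest in TPdh-/- TE, 4.77, and the groups differed by 0.89 on the log2 scale (exact permutation p = 0.0286, adjusted p = 1.0). No pathway gene was called in this comparison without flanks, at either stricter limit or when any TPdh-/- TM library was left out, and the only Stat5b peak of TPdh-/- TM replicate 1 lay upstream of the gene. At promoters all 4 TPdh-/- TM libraries held Stat5b and none of the other 12 did. Against WT TM and against TPdh-/- TE this gave a Fisher's exact p of 0.0286 and an adjusted p of 1.0, and 4.97% of all genes differed by at least 3 libraries at promoters between genotypes in TM and 4.44% between TM and TE in TPdh-/-. No other pathway gene did in these 2 comparisons, and none did between genotypes in TE (3.01%) or between TM and TE in WT (2.9%). TPdh-/- TM libraries also held more promoters of all protein-coding genes, with a mean of 29.35%. The means were 18.82% in WT TE, 19.47% in TPdh-/- TE and 15.78% in WT TM. The share of all genes with 4 against 0 libraries at promoters was not counted. The 4 Stat5b promoter peaks were not at 1 place. Those of replicates 1 and 3 lay near the 5' end of the gene, 343 bp before and 438 bp after an annotated start, and those of replicates 2 and 4 lay 93 and 449 bp after a start inside the gene. They had a fold enrichment of 3.26 to 5.23 over 5 to 8 fragments.

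The highest pileup of any pathway peak, 19 fragments, was in WT TE replicate 4 at an intronic Stat5b site, chr11:100814512-100814922, where WT TE replicate 2 (8.17-fold) and TPdh-/- TE replicate 1 (4.63-fold) also had peaks. The 3 summits lay within 8 bp of each other, closer than at any other site that at least 3 libraries held, and no TM library held it. The sequence is shown for these values. It is 200 bases of the plus strand around the median summit, chr11:100814562-100814761 on GRCm38.p6, with a GC box (GGGCGG or its reverse complement) in capitals, which 41.6% of windows of this length at 9244 regions held by at least 4 libraries contained. It held no TTCNNNGAA.
Stat5b intron: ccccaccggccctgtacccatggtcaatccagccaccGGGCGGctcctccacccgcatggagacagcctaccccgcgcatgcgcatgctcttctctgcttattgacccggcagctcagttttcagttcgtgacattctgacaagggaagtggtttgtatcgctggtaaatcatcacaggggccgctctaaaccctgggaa

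Cish (ENSMUSG00000032578.7, chr9:107296026-107302784, plus strand) encodes a SOCS-family inhibitor that STAT5 induces and that restrains receptor signalling. Its strongest peaks had a fold enrichment of 5.15 in WT TE replicate 2, 4.19 in TPdh-/- TE replicate 3, 4.16, 3.42 and 5.14 in WT TM replicates 1, 2 and 4, and 6.22 and 3.83 in TPdh-/- TM replicates 1 and 3. It was held by 1 library in each TE group, 3 in WT TM and 2 in TPdh-/- TM. Cish was the only pathway gene held by fewer TPdh-/- than WT libraries in TM, by 1 library, and the groups overlapped, with a log2 difference of -0.41 (adjusted p = 1.0 in the exact permutation test). In WT, TM lay above TE by 0.96 (exact permutation p = 0.486, adjusted p = 1.0).

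Each of the 7 libraries that held Cish had a promoter peak. Of its 10 summits, 9 lay within 1000 bp of an annotated start, beside 46 of 237 for the 10 genes together (19.4%). Cish has 5 annotated starts in a window of 16759 bp, against 2 in 186097 bp for Bcl2, and this was not corrected for. One site, chr9:107296522-107296771, was held by exactly 1 library of each group, and its 4 summits lay within 58 bp. It also overlaps the annotated gene Gm17040, and peaks cannot be assigned to either. The sequence is shown because it carries adjacent matches to the STAT palindrome under these peaks. It is the RefSeq promoter on GRCm38.p6, chr9:107296409-107296708, plus strand, from 250 bases before to 50 bases from the start on, with matches to TTCNNNGAA and to the GC box in capitals. TTCNNNGAA reads the same on both strands.
Cish promoter: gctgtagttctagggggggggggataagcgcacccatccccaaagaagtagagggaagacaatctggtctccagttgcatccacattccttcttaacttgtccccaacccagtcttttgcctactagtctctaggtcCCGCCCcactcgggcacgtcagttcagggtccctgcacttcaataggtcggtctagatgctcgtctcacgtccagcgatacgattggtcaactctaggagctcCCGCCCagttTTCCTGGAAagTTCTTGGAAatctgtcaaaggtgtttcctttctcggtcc

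Matches to TTCNNNGAA began 0 and 11 bp from the RefSeq start. At least 2 matches were present in 0.457% of 32851 RefSeq promoters and at least 1 in 8.3%. The peaks of WT TE replicate 2 (5.15-fold, 10 fragments), WT TM replicate 4 (5.14-fold, 7 fragments) and TPdh-/- TE replicate 3 (4.17-fold, 5 fragments) each spanned both matches. The peak of TPdh-/- TM replicate 1 (6.22-fold, 7 fragments) ended 20 bp before the start and spanned neither. Summits lay 35, 0, 21 and 46 bp from the nearer match. Among the 12 RefSeq promoters searched, which belong to the pathway genes other than Il2rb, 2 held the motif, those of Cish and Il7r, and no summit lay inside that of Il7r. The presence of the motif is a description of the sequence, and binding of STAT5 was not measured.

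**Figure D4:**
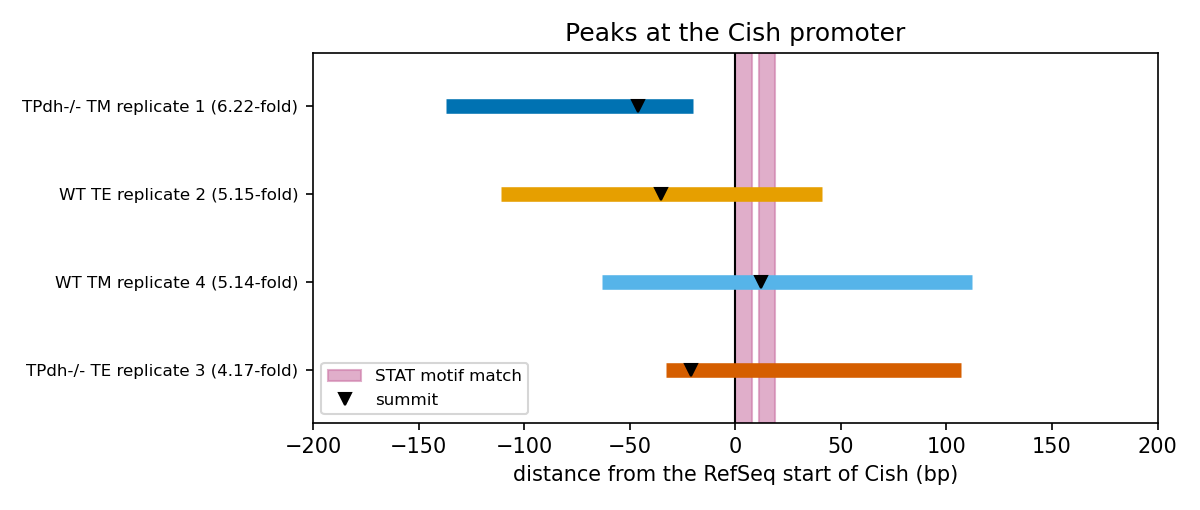
Extent (bars) and summit (triangles) of the 4 peaks closest to the RefSeq start of Cish, in bp from that start, by library, with both matches to the STAT motif shaded. Bars of 3 of the 4 libraries cross both matches, and each group contributes 1 library.

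Bcl2 (ENSMUSG00000057329.7, chr1:106538178-106714274, minus strand) encodes an inhibitor of mitochondrial apoptosis and was the longest of the genes, with 176097 bp. Its strongest peaks had a fold enrichment of 7.59 and 3.82 in WT TE replicates 2 and 4, and 4.03, 4.97, 5.56 and 5.84 in TPdh-/- TE. They had 8.51, 6.77, 5.51 and 5.0 in WT TM, and 4.89, 7.88, 6.85 and 5.62 in TPdh-/- TM. The TM groups were complete in both genotypes and their values interleaved, with a genotype difference of -0.02 on the log2 scale (exact permutation p = 0.914, adjusted p = 1.0). In WT, TM lay above TE by 1.44, where 2 TE libraries had no peak (exact permutation p = 0.143, adjusted p = 1.0). The gene held 61 of the 237 pathway peaks, which per 100 kb and library was 2.05, near the 2.11 of Stat5b and below the 4.2 of Il21r.

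Of the 6 sites that at least 4 libraries held, 3 were in Bcl2, and the others were the promoter sites of Il15ra, Stat5a and Cish already given. The Bcl2 start (chr1:106713688-106714372) was held by 2 TPdh-/- TE and 2 TPdh-/- TM libraries and by no WT library. Its peaks were weak, with a fold enrichment of 3.28 to 3.95 over 4 fragments, and TPdh-/- TE replicate 4 had a further peak upstream, at -239 bp from the start, with 5.84. An intronic site, chr1:106600636-106601473, was held by 1 TPdh-/- TE, 1 WT TM and 2 TPdh-/- TM libraries.

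The most widely held site of the pathway, chr1:106612524-106613179, lay in an intron 100393 bp from the nearest start and was shared by 6 libraries, 1 each of WT TE, TPdh-/- TE and WT TM and 3 of TPdh-/- TM. Its peaks had a fold enrichment of 3.06 to 7.59 and a pileup of 3 to 13 fragments. The sequence around its median summit, chr1:106612686-106612885 of GRCm38.p6, plus strand, is shown as that of the site shared most. The summits of 4 of the 6 libraries lie in it. Capitals mark a TTCNNNGAA match and a RUNX motif (TGTGGT or its reverse complement), which 4.66% and 12.7% of region windows of this length held.
Bcl2 intron: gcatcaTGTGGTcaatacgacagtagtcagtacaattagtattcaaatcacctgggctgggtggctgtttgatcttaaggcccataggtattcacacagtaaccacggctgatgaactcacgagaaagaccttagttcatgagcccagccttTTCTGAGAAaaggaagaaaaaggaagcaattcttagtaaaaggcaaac

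Sites of the pathway were mostly seen once. Of 178 sites, 143 (80.3%) were held by 1 library, beside 86.9% of 525048 merged regions genome-wide, and 3.37% by at least 4, beside 1.76%. No site was held by 8 libraries or more, and the largest difference at a site in any comparison was 2 libraries. In all, 158 of the 237 summits were intronic, 26 lay in untranslated exons, 5 in coding exons, 4 in noncoding exons, 16 upstream and 28 downstream. Libraries that held the same gene thus seldom held it at the same site.

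The rest of the pathway was described by a list of 38 further genes: ligands, related receptor chains, other JAKs and STATs, inhibitors, adaptors with the PI3K branch, and targets. In TE, 6 of the 38 were held by at least 3 more TPdh-/- than WT libraries and 2 by at least 3 fewer, beside 15.3% and 0.757% of all genes. In TM 2 were held by more and 0 by fewer, beside 8.69% and 0.191% of all genes. TM exceeded TE in WT by that margin for 3 genes and fell short for 2, beside 7.17% and 1.26%, and in TPdh-/- for 0 and 1, beside 4.09% and 0.784%. None of the 38 passed Fisher's exact test after adjustment, as none of all genes did. Libraries held on average 16.2 of the 38 genes in WT TE, 25.2 in TPdh-/- TE, 19.2 in WT TM and 28.2 in TPdh-/- TM. At promoters these means were 9.75, 9.25, 8.75 and 16.5. In the same order, the mean share of all protein-coding genes held was 27.72%, 53.15%, 41.12% and 63.9%. At promoters that share was 18.82%, 19.47%, 15.78% and 29.35%.

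Of the ligands, Il15 and Il21 were each held by 4 TPdh-/- TE and 0 WT TE libraries (Fisher's exact p = 0.0286 each, adjusted p = 0.89), as were 3.13% of all genes, and Il15 by 3 WT TM and 1 TPdh-/- TM libraries. The receptor chains Il2rg and Il9r ran the other way in TE. Il2rg, the common chain that all these receptors need, was held by 3 WT TE libraries, each with a promoter peak, and by 0 TPdh-/- TE, 1 WT TM and 2 TPdh-/- TM libraries. Il9r, the IL-9 receptor chain, was held by all 4 WT TE and by 0 WT TM libraries (Fisher's exact p = 0.0286, adjusted p = 1.0, beside 0.0593% of all genes in this direction), and by 1 TPdh-/- TE and 3 TPdh-/- TM libraries.

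Tyk2, a kinase of the JAK family, was held by 3 libraries in every group but WT TM, where none held it. Socs2, a STAT5-induced inhibitor, was held by 0 and 3 libraries in WT and TPdh-/- TE and by 3 and 4 in WT and TPdh-/- TM. In the same order of groups, Cbl, a ubiquitin ligase, was held by 1, 4, 2 and 4. Akt1, the kinase of the PI3K branch, was held by 0, 3, 1 and 2. Ccnd2, a cyclin induced by IL-2, was held by 0, 3, 3 and 3, with promoter peaks in 0, 2, 3 and 3.

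**Figure D5:**
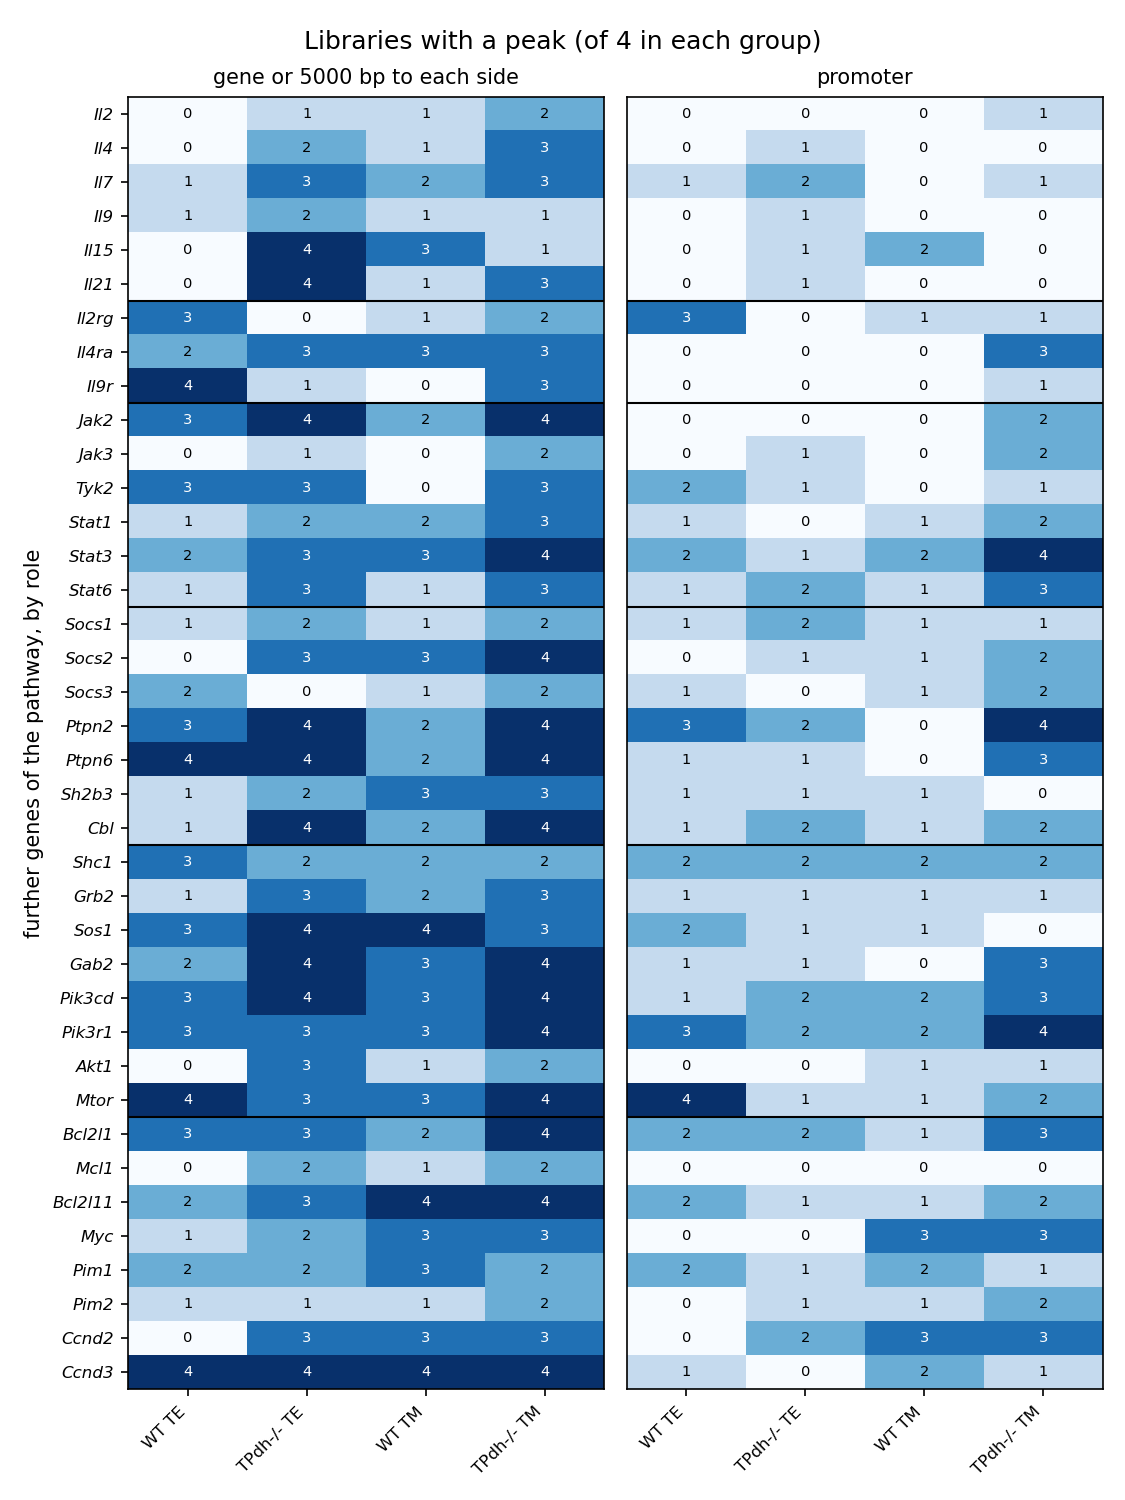
Number of libraries, of 4 in each group, with a peak in each of the 38 further pathway genes, over the gene and 5000 bp to each side (left) and at promoters (right), with lines between roles. Il15 and Il21 go from 0 in WT TE to 4 in TPdh-/- TE, and Il2rg from 3 to 0.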

How the data were processed

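ATAC-seq peak lists of 16 libraries were analysed as deposited, and each library was placed in its group by its title and genotype label. Per the methods of the study, the authors trimmed reads with Trimmomatic, aligned pairs to GRCm38 with BWA MEM 0.7.17, removed ambiguous and blacklisted reads, and called peaks per library with MACS2 2.2.7.1 in paired mode with the mouse genome size. A significance limit and any control were not given in the sources used here, nor was any offset for the transposase. For each peak the authors deposited an integer score, a fold enrichment, and the −log10 p-value and −log10 q-value. The fold enrichment is the ratio of summit pileup to local background after 1 is added to each, so it is not a plain ratio. No 2 lists held the same peaks, and none was scaled between libraries. List length differed between groups and could affect every count of genes.

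Peaks on 21 chromosomes were matched to GENCODE M21 genes and 5000 bp to each side with Python 3.11.15, numpy 2.4.6, pandas 2.3.3 and scipy 1.17.1, and sequences were read with pysam 0.24.0 from RefSeq GRCm38.p6. The summit pileup and background were solved from the fold enrichment and p-value, and 100% of pileups came out within 0.05 of a whole number. Read totals were not analysed here, and 1 marker list is not reported here. A gene without a peak was given a fold enrichment of 1, that is 0 on the log2 scale. Tests were two-sided, on all 21938 genes, with Benjamini-Hochberg adjustment, and were tested on simulated data. Labels do not tie libraries to separate mice, so p-values measure only the spread between these libraries, which may be technical.

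The 10 genes, the 38 further genes, the markers and the motifs were chosen with earlier results of these data known. All 10 genes were to be named, further genes where a comparison differed by at least 3 libraries, and sites held by at least 4 libraries. Sequences of sites held by at least 8 libraries were to be shown, and none was. The Bcl2 site was shown as that with the largest difference, tied with others and held by most libraries, and the other 3 sequences were chosen after their values were seen. Alternatives used stricter peaks, equal-sized lists, other windows, another strength scale and leaving out each library.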

Additional observations from a re-analysis of the deposited data

Results flagged for a closer look

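In 34 sets of 4 libraries, 1 library lay apart from its group by Dixon's test at the 95% level 3 times, and chance gives about 1 set in 20. Background coverage in WT TM replicate 3 was 0.572 fragments per base, against 0.354 to 0.364 in the other WT TM libraries, and that library held 4 of the 10 genes. The number of pathway genes held was 9 in TPdh-/- TM replicate 2 and 8 in each of the others. The number with a promoter peak was 3 in TPdh-/- TM replicate 4 and 4 in each of the others. The last 2 are differences of 1 gene among counts that otherwise tie.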

How the results depend on the processing

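Of 924 values recomputed under other settings, 23 turned direction, 17 counts of the 10 genes moved by more than 1.5 times and 6 mean differences by more than the SD between libraries, a wide limit that let means move by over 1.5 times. The share of libraries that held a single gene was judged by direction alone, and its size could change widely, as for Il2rb, which had no difference between genotypes in TM at a −log10 q of at least 5 or in equal-sized lists. The adjusted presence and strength tests called 0 of the 10 genes under every setting, which says nothing on stability at the smallest p these designs allow. Lists cut to the shortest list of a comparison, and leaving libraries out of the test of the genotype difference between TM and TE, were chosen after seeing the data. Between genotypes in TM, the number of genes that differed by at least 3 libraries (1) was 0.0 at a −log10 q of at least 5, in equal-sized lists and in lists of 13304 peaks, 2.0 without flanks (Il2ra and Il21r, no longer Il2rb), and 0.0 to 1.0 when 1 library was left out, with 0.0 without WT TM replicate 1, 2 or 3. At a fold enrichment of at least 5 the count stayed at 1.0 but the gene was Jak1. The mean difference of 2.75 genes was 1.25 at a −log10 q of at least 5, 1.75 at promoters, 0.75 at a fold enrichment of at least 5, -0.5 in equal-sized lists, 0.5 in lists of 13304 peaks and 1.92 to 3.58 with 1 library left out. In TE, 3 genes became 1.0 at either stricter limit and in both kinds of equal lists, that gene being Stat5b with fewer TPdh-/- libraries, 0.0 at promoters, and 2.0 to 3.0 with 1 library left out. The mean difference of 3.75 was -0.25 at a −log10 q of at least 5, 0.0 at a fold enrichment of at least 5, -0.75 in both kinds of equal lists, 0.75 at promoters and 2.75 to 5.08 with 1 library left out. Between TM and TE in WT, the count of 0 became 1.0 without WT TM replicate 3 or WT TE replicate 2 (0.0 to 1.0 with 1 library left out), and the mean difference of 2.5 was 1.5 to 3.83 with 1 library left out, 0.0 in equal-sized lists, 0.25 at a −log10 q of at least 5 and at promoters, 1.25 at a fold enrichment of at least 5 and without flanks, and 2.0 with the wider flank. In TPdh-/-, the count of 0 became 1.0 at either stricter limit and at promoters, and the mean difference of 1.5 was 2.5 with the wider flank, 0.25 in equal-sized lists, 0.0 in lists of 32906 peaks and 0.917 to 1.92 with 1 library left out. The share of libraries that held a single gene turned direction 19 times. The differences, in percentage points, were then -25.0 for Il15ra, -50.0 for Il7r and Stat5b, -25.0 for Jak1 and 25.0 for Cish between genotypes in TM, -25.0 for Bcl2 and Il7r in TE, 25.0 for Il15ra and -25.0 for Jak1 and Il7r between TM and TE in WT, and -25.0 for Il7r in TPdh-/-. Stricter limits and shorter lists hold fewer peaks by construction, and the cause of the turns was not tested. With the replicate number as a block (replicate block), a fit that cannot reach the threshold of 0.05 with 4 numbers, the strength test called 0.0 genes in every comparison. Correlations across genes between same-numbered libraries ran from -0.0498 to 0.142, and between others from -0.11 to 0.0934. The 0.142 came from WT TM against WT TE, where pairs of other numbers reached 0.0736. Between TM and TE in TPdh-/-, 3 TM libraries were closest to their own number, with same-number correlations of -0.00245 to 0.0475. None of the 4 comparisons was judged to pair by number.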
